A study of Mus musculus with 8 samples.

Results

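The enzymes that build triglyceride in the liver were examined as a set of 10 genes, chosen by name and found on the array through their RefSeq accessions: Gpam, Agpat2, Agpat3, Lpin1, Lpin2, Lpin3, Dgat1, Dgat2, Mogat1 and Mogat2. All 10 had at least 1 probe (Gpam 3, Lpin3 2), out of 26698 genes with a symbol on the array. Every one of these probes stood well above background on all 8 arrays, so all 10 members entered the test. The study used Agilent 1-colour expression arrays, on which RNA from 1 liver sample is labelled with the dye Cy3 and its brightness is read at each probe. The mice were males of congenic lines between C57BL/6J and NZO/HiBomDife, an inbred strain that becomes obese and diabetic through many loci. The first genotype, Ltg/NZO.5.3N/B, is called NB and was measured on 4 arrays, numbered 2, 3, 5 and 8. The other, Ltg/NZO.5.3N/N, is called NN and was measured on 4 arrays, numbered 1, 4, 6 and 7. They were described as differing in 5.3 Mbp of chromosome 18. All mice of both groups ate a diet with 45% fat until week 5, and carried no transgene that the labels name. None of the 10 genes lies on chromosome 18.

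Triglyceride is assembled on a glycerol backbone by successive acylation. GPAM adds the first acyl chain to glycerol-3-phosphate, AGPAT enzymes add the next to give phosphatidate, lipins remove the phosphate to leave diacylglycerol, and DGAT1 or DGAT2 adds the last chain. MOGAT enzymes reach diacylglycerol by another route, from monoacylglycerol, which is the main route in the intestine. The liver stores the product in lipid droplets or exports it in very-low-density lipoprotein.

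The data consist of the brightness of each probe. The probes that measured the lipins and Gpam are shown by their first 30 bases, 5′ to 3′, as the array design gives them, because lipin values and the repeat probes of Gpam carry most of what follows. No genome position is given for them here, since the scanner files list them as unmapped.
Lpin1 (NM_001130412): cctggcgcatctgagacaggcttctgtcgt
Lpin2 (NM_001164885): taaagatgttgtcttcagatgaatggctca
Lpin3, brighter probe (NM_001199118): acagccctgacctctaacaattaaatgtgt
Lpin3, other probe (NM_022883): ccctccctggactctgagaacgtagccctt
Gpam, brightest probe (XM_006526692): tttatgcctggtgatagcatgtcccgagaa
Gpam, probe 2 (XM_011247147): taaaaaagcactgtgtgactttgtgaagga
Gpam, probe 3 (NM_008149): ctcactgggtgctgtgctgtggctagtgta
The full probes of the set were 47 to 56 bases long. The longest run that any probe shared with another of the set was 8 bases, and the 3 Gpam probes shared at most 5.

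Signals are given as log2 values relative to the 75th percentile of the same array, so that 0 is the level of a probe brighter than 75% of the others and each unit is a doubling. The 75th percentile lay between 445 and 584.4 intensity units, and 74.4% to 79.6% of probes were well above background. Liver identity was clear from the hepatocyte markers, whose summed linear signal was 993 to 1080 times the array percentile in NB and 1000 to 1120 times in NN. Summed adipocyte markers were at 0.651 to 0.969 in NB and 0.679 to 0.795 in NN. Adipoq, the adiponectin gene, and Cfd were well above background on fewer than 8 arrays, but Lep, Retn, Plin1 and Cidea on all 8. Enterocyte markers summed to 153 to 295 in NB and 227 to 311 in NN, led by Apoa4, which liver also makes. Vil1, the gene of the brush border protein villin, was well above background on fewer than 8 arrays, but the other enterocyte markers on all 8. None of the tested markers of 10 cell types was called between the genotypes. In bulk liver, fewer cells of a type and less RNA per cell cannot be told apart. Whether every array stands for its own animal is not stated in the labels, and the p-values reflect only how these samples vary, which may be technical. The number of arrays limits the precision.

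The comparison of NB with NN asked whether livers of these mice, which differ in the named segment, also differ in the transcripts of triglyceride synthesis. None of the 10 enzymes passed the test. With limma over 42982 features, 0 of 10 members were called at an adjusted p under 0.05, against 0.00698% of all features, and each member had an adjusted p of 1. At an unadjusted p under 0.05 the count was again 0 of 10 members, against 1.69% of all features, and the smallest unadjusted p was 0.162, for Agpat2. The values of the genotypes overlapped for every member, while 1.16% of all features had no overlap. Of the 10 log2 fold changes (NB minus NN) 6 were below 0, or 60%, close to the 54.1% over all features, and their median was -0.0298 against -0.00971 over all features.

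**Figure D1:**
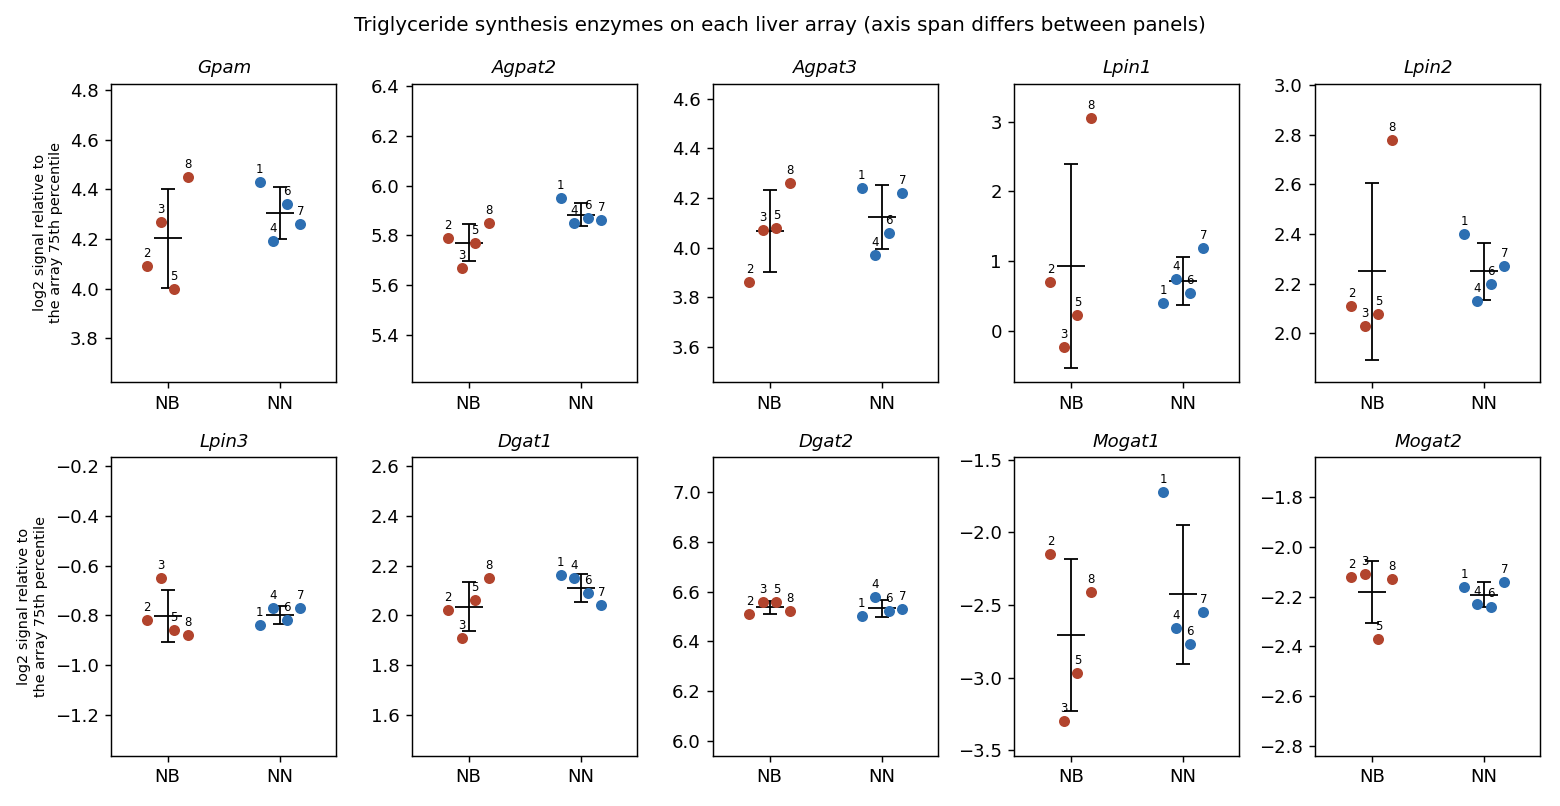
Each panel plots 1 enzyme, with the log2 signal relative to the array's 75th percentile on the vertical axis, points for single arrays (numbered by sample) and bars for the mean and SD of 4 NB and 4 NN arrays. The genotypes overlap in every panel, and Lpin1 on array NB 8, at 3.05, stands above all other arrays.

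The first acylation was read from Gpam, the gene of the mitochondrial glycerol-3-phosphate acyltransferase, on chromosome 19. Its brightest probe had log2 signals of 4.09, 4.27, 4.00 and 4.45 on NB 2, 3, 5 and 8, against 4.43, 4.19, 4.34 and 4.26 on NN 1, 4, 6 and 7. NB 8 was the highest array and NB 5 the lowest, and the NN arrays lay between them. The log2 fold change was -0.10 (SE 0.111), and its 95% interval ran from 0.783-fold to 1.11-fold. The other Gpam probes gave -0.07 (SE 0.094) and -0.13 (SE 0.103), so the 3 probes had the same sign. They did not order the arrays alike: NB 8 was the highest array with the brightest probe and, at 3.77, with probe 2, while with probe 3 it had 3.12, below all 4 NN arrays.

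The next acylation is the work of the AGPAT family. Agpat2, whose human counterpart is lost in a congenital lipodystrophy, had 5.79, 5.67, 5.77 and 5.85 on NB 2, 3, 5 and 8, against 5.95, 5.85, 5.87 and 5.86 on NN 1, 4, 6 and 7. Its genotypes overlapped at 1 array: 3 of the 4 NB arrays lay below every NN array, and NB 8 lay within the NN range. The difference was small, at a mean of 5.77 ± 0.08 in NB and 5.88 ± 0.05 in NN (SD, n = 4 each), with -0.11 (SE 0.0717) as the log2 fold change and limma's adjusted p at 1. The interval ran from 0.828-fold to 1.04-fold. Each of the 4 slide columns held 1 NB and 1 NN array, and Agpat2 was lower in NB in all 4, by log2 differences of -0.15, -0.18, -0.10 and -0.01. Every other member had differences of both signs over the columns. The share of all features with the same sign in all 4 columns was not counted, so this agreement has no background to be read against. With the slide column as a block the SE of Agpat2 was 0.0722 and the interval 0.819-fold to 1.05-fold. Limma's unadjusted p was then 0.183, against 0.162 without the block. Agpat3, a related acyltransferase, had 3.86, 4.07, 4.08 and 4.26 on the NB arrays in the same order, against 4.24, 3.97, 4.06 and 4.22 on the NN arrays. Its values were spread alike in both genotypes, with a log2 fold change of -0.06 (SE 0.105) and an interval from 0.815-fold to 1.13-fold.

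The lipins, which dephosphorylate phosphatidate to diacylglycerol, held the widest range in the set. Lpin1, whose product also acts as a transcriptional coactivator in liver and whose loss causes fatty liver dystrophy in mice, had 0.70, -0.24, 0.22 and 3.05 on NB 2, 3, 5 and 8. On NN 1, 4, 6 and 7 it had 0.40, 0.74, 0.54 and 1.18. The array NB 8 thus stood 3.67-fold above the next array, NN 7, and the lowest array was NB 3. Among genes with a symbol, no other gene exceeded its next array by as much on NB 8, and among all 42512 features with 8 values Lpin1 had rank 3. The signal spanned 9.81-fold over the 8 arrays, and the within-genotype SD of 1.06 was larger than that of 99.8% of features. The genotype means were 0.93 ± 1.46 in NB and 0.71 ± 0.34 in NN (SD, n = 4 each), giving 0.22 (SE 0.627) as the log2 fold change, with limma's adjusted p at 1. The 95% interval, 0.433-fold to 3.12-fold, is the widest of the set. The sign rested on a single array: without NB 8 the log2 fold change of Lpin1 was -0.49 (SE 0.254), with limma's adjusted p again at 1.

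Lpin2, a lipin that liver expresses, showed the same array apart at a smaller scale. It had 2.11, 2.03, 2.08 and 2.78 on NB 2, 3, 5 and 8, against 2.40, 2.13, 2.20 and 2.27 on NN 1, 4, 6 and 7. NB 8 was above every NN array, and the other 3 NB arrays were below every NN array. The means were equal, at 2.25 ± 0.35 in NB and 2.25 ± 0.12 in NN (SD, n = 4 each), with an interval from 0.769-fold to 1.30-fold. Without NB 8 the log2 fold change was -0.18 (SE 0.0876), with limma's adjusted p again at 1. Lpin3, the remaining lipin, did not share this pattern. With its brighter probe it had -0.82, -0.65, -0.86 and -0.88 on the NB arrays and -0.84, -0.77, -0.82 and -0.77 on the NN arrays. NB 8 was thus the lowest array with that probe, by a small margin. With the other probe NB 8 had -1.31, within the range of the other arrays, and NB 5 was the lowest at -1.66. The log2 fold change of Lpin3 was -0.0031 with the brighter probe (SE 0.0769) and -0.04 with the other (SE 0.142). NB 8 also had the lowest mean correlation with the other arrays, 0.990, against 0.993 to 0.994 for the rest, and the part of this in the lipin values was not tested.

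**Figure D2:**
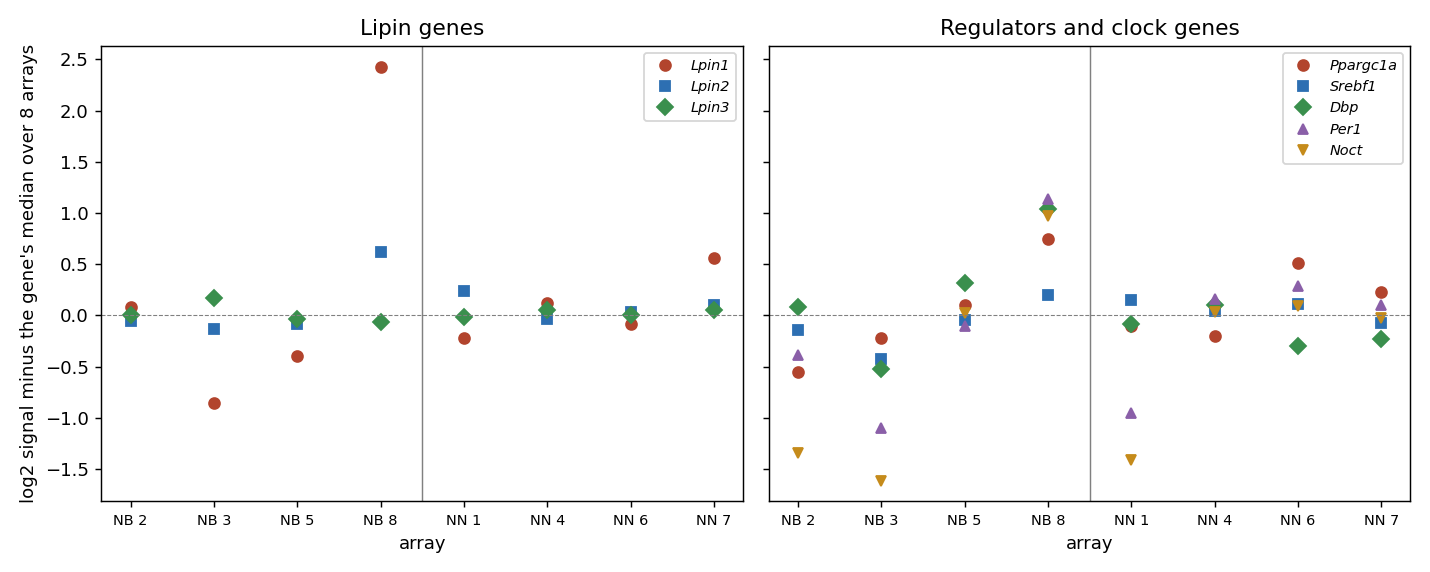
The left panel plots the 3 lipin genes and the right panel 5 genes discussed beside them, as the log2 signal minus the gene's median over the 8 arrays, with NB arrays left of NN arrays. On NB 8 all plotted genes except Lpin3 are at their highest. Ppargc1a, Dbp, Per1 and Noct were chosen after their values had been seen.

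Other genes that were highest on NB 8 are given here beside the lipins. Ppargc1a and the circadian genes Dbp, Per1 and Noct were chosen after their values had been seen. Ppargc1a, the coactivator that partners lipin 1 in fasting liver, had 5.70, 6.03, 6.36 and 7.00 on NB 2, 3, 5 and 8, against 6.15, 6.05, 6.77 and 6.48 on NN 1, 4, 6 and 7, with NB 8 the highest. Srebf1, the gene of the lipogenic factor SREBP-1, had 4.28, 4.00, 4.38 and 4.62 on the NB arrays, against 4.58, 4.47, 4.54 and 4.35 on the NN arrays. It was highest on NB 8 and lowest on NB 3, as Lpin1 was, though over a smaller range. The circadian genes spread more widely. Dbp had 2.61, 2.00, 2.84 and 3.56 on the NB arrays, against 2.44, 2.63, 2.23 and 2.29 on the NN arrays. Per1 had 0.56, -0.15, 0.84 and 2.08 on the NB arrays, against -0.01, 1.11, 1.23 and 1.05 on the NN arrays. Noct had -0.78, -1.05, 0.59 and 1.54 on the NB arrays, against -0.85, 0.60, 0.66 and 0.54 on the NN arrays. Dbp, Per1 and Noct were all highest on NB 8 and lowest on NB 3, with adjusted p = 1 between the genotypes. Since these genes were chosen after their values had been seen, their match with Lpin1 is no separate evidence. Over all features NB 8 was the highest array for 17.1% and NB 3 the lowest for 9.84%. The part of these genes in the lipin values was not tested.

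Because Lpin1 and Lpin2 were high on the same array, the 250 bases before an annotated start of each are shown, from the RefSeq promoter table of GRCm38.p6, 5′ to 3′ along the gene. Lpin1 is at chr12:16610967-16611216 on the minus strand and Lpin2 at chr17:71183282-71183531 on the plus strand, the first of its starts in the table. Capitals mark matches, on either strand, to CACGTG (the E-box of circadian and lipogenic factors), CCAAT (the CCAAT box), GGGCGG (a GC box), TATAAA (the TATA box), TGACGTCA (the cAMP response element) and AGGTCA (a nuclear receptor half-site).
Lpin1: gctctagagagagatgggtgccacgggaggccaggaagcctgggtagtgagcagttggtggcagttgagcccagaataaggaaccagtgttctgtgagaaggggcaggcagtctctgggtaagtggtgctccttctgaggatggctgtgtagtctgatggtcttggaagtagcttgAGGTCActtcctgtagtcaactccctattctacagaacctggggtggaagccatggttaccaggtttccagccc
Lpin2: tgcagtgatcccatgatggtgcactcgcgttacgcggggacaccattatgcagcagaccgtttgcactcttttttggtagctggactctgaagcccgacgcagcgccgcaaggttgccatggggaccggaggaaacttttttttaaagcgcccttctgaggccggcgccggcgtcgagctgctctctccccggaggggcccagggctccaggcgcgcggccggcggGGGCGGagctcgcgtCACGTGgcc
The Lpin1 window held 1 AGGTCA, a motif found in 14% of all 32851 windows of the same length. The Lpin2 window held 1 CACGTG, found in 6.02% of windows, and 1 GGGCGG, found in 32.7%; no motif was shared by the windows of Lpin1 and Lpin2. The table held 11 windows for 7 of the members, and of these 1 had CACGTG and 2 had AGGTCA. A match describes the letters of the C57BL/6J reference and is no evidence of binding.

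The last acylation is carried out by DGAT1 and DGAT2, which are unrelated in sequence and are both used in liver. Dgat1 had 2.02, 1.91, 2.06 and 2.15 on NB 2, 3, 5 and 8, against 2.16, 2.15, 2.09 and 2.04 on NN 1, 4, 6 and 7. The genotypes overlapped, with NB 3 the lowest array, and the log2 fold change was -0.07 (SE 0.0772) with an interval from 0.841-fold to 1.07-fold. Dgat2 had 6.51, 6.56, 6.56 and 6.52 on the NB arrays and 6.5, 6.58, 6.52 and 6.53 on the NN arrays. It was the steadiest member: the 8 arrays spanned 1.06-fold, and the within-genotype SD of 0.0322 was smaller than that of all but 0.148% of features. No spot was saturated on any array. The log2 fold change of Dgat2 was 0.0032 (SE 0.0645), and its interval, from 0.905-fold to 1.11-fold, limits any difference between the genotypes more closely than for any other member.

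The monoacylglycerol route was read from 2 probes, both below the array percentile. Mogat1, whose transcript rises in fatty liver of obese mice, had -2.15, -3.30, -2.97 and -2.41 on NB 2, 3, 5 and 8, against -1.72, -2.66, -2.77 and -2.55 on NN 1, 4, 6 and 7. NN 1 was the highest array and NB 3 the lowest, a span of 2.99-fold, and the within-genotype SD of 0.501 was larger than that of 95.5% of features. The means were -2.71 ± 0.52 in NB and -2.42 ± 0.48 in NN (SD, n = 4 each), giving -0.28 (SE 0.300) as the log2 fold change, with limma's adjusted p at 1. The interval reached from 0.512-fold to 1.32-fold. The size rested on single arrays: the log2 fold change of Mogat1 was -0.0489 without NN 1, -0.0873 without NB 3 and -0.47 without NB 2. With the slide column as a block the SE was 0.139 and the interval 0.646-fold to 1.04-fold, with limma's adjusted p again at 1. Within the columns Mogat1 was lower in NB in 3 and higher in 1, at -0.43, -0.64, -0.20 and 0.14. Mogat2, the intestinal enzyme of the family, had -2.12, -2.11, -2.37 and -2.13 on the NB arrays and -2.16, -2.23, -2.24 and -2.14 on the NN arrays. Its log2 fold change was 0.0089 (SE 0.0837), and the lowest array was NB 5.

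**Figure D3:**
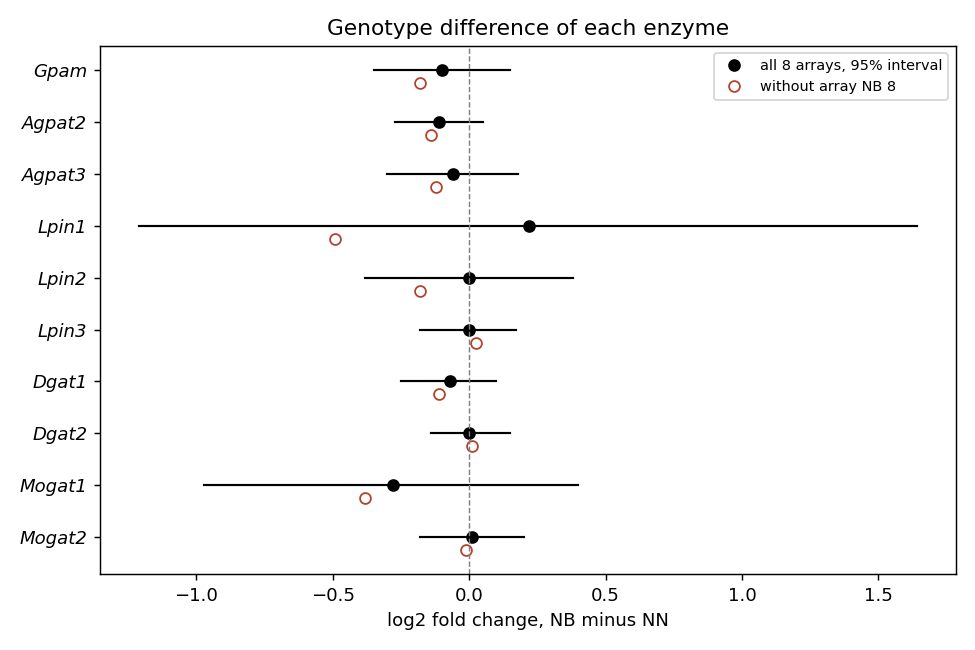
Filled points give the log2 fold change (NB minus NN) of each enzyme with its 95% interval from limma on all 8 arrays, and open points the value without array NB 8. All 10 intervals cross 0, and Lpin1 has the widest, from -1.21 to 1.64.

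Members also differed in how far they varied between arrays of the same genotype. The within-genotype SD was 0.0322 for Dgat2, 0.0621 for Agpat2, 0.0782 for Lpin3, 0.0792 for Dgat1 and 0.0964 for Mogat2. Of all features, 16.2% had a smaller SD than Mogat2 and fewer than that did so for the other 4. It was 0.145 for Agpat3 and 0.157 for Gpam, which 39.4% and 44.5% of features stayed under, and 0.264 for Lpin2, which 75.7% stayed under. Mogat1 and Lpin1 varied more than the rest. Each value is that of the brightest probe of a gene. The low SD of Lpin3 was not shared by its other probe, with 0.22 in NB and 0.21 in NN. Arrays were not alike either: NB 8 held the highest value for 4 members (Gpam, Agpat3, Lpin1 and Lpin2), where it was highest for 17.1% of all features. NB 3 held the lowest value for 5 members (Agpat2, Lpin1, Lpin2, Dgat1 and Mogat1), where it was lowest for 9.84% of all features. NB 3 was also the highest array for 2 members, against 15.0% of all features, and NN 1 for 3, against 17.1%. Whether these counts depart from the shares over all features was not tested.

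Isoforms of a family were compared through the difference of their log2 signals on the same array, which is free of any factor common to a whole array but not of scaling that differs with brightness. Since probes differ in brightness, such a difference does not say which isoform is more abundant, and only its change between genotypes was tested. For Lpin1 minus Lpin2 it was -1.41, -2.27, -1.86 and 0.27 on NB 2, 3, 5 and 8, against -2.0, -1.38, -1.67 and -1.09 on NN 1, 4, 6 and 7. NB 8 was the only array above the NN range, and NB 3 the lowest of all. The change between genotypes was 0.22 (SE 0.591, exact permutation p = 0.857). For Dgat1 minus Dgat2 the mean was -4.50 ± 0.11 in NB and -4.42 ± 0.06 in NN (SD, n = 4 each), a change of -0.08 (SE 0.0656, exact permutation p = 0.314), and -0.11 in the authors' value table. For Mogat1 minus Mogat2 it was -0.52 ± 0.50 in NB and -0.23 ± 0.45 in NN (SD, n = 4 each), a change of -0.29 (SE 0.338, exact permutation p = 0.457). For Agpat2 minus Agpat3 the change was -0.05 (SE 0.0939, exact permutation p = 0.600). The pairs of Lpin3 with Lpin1 and with Lpin2 gave 0.22 (SE 0.784) and 0.00 (SE 0.224). Each of the 6 pairs had an adjusted p of 1 over the pairs. The smallest p of this two-sided exact test is 0.0286, which for 1 pair alone becomes 0.171 after adjustment, so no pair could have passed unless at least 4 reached that p.

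Across the 8 arrays the enzymes did not vary as a single block. Of the 45 pairs of members, 28 had a positive Pearson r and 17 one below 0. None passed after adjustment over the 45 pairs (lowest adjusted p = 0.266 for Pearson and 0.485 for Spearman, exact permutation over 40320 orderings), and 7 had an unadjusted Pearson p under 0.05. The highest was that of Lpin1 and Lpin2, with r = 0.89 (exact permutation p = 0.0188) and Spearman rho = 0.69 (exact permutation p = 0.0694). It rested on arrays NB 3 and NB 8: without them r was 0.14, and without NB 8 alone 0.45. Agpat2 and Dgat1 had r = 0.85 (exact permutation p = 0.0101) and rho = 0.67 (exact permutation p = 0.0831). Without NB 3 and NN 1 their r was 0.45, and centred on the genotype means it was 0.82. Agpat2 and Mogat1 had r = 0.79 (exact permutation p = 0.0220) and rho = 0.60 (exact permutation p = 0.132), which also rested on NB 3 and NN 1, with r = 0.10 without them. In the other direction, Dgat2 and Mogat1 had r = -0.76 (exact permutation p = 0.0276) and rho = -0.81 (exact permutation p = 0.0218), with r = -0.89 without NB 3 and NN 4. Dgat2 spanned 1.06-fold in all, so this relation concerns very small changes of its signal. The 2 arrays left out of a pair were those farthest from the median of the first-named gene. For Dgat2 and Mogat1 this kept NN 1, the highest array of Mogat1. Lpin3, read from its brighter probe only, and Dgat1 had r = -0.72 (exact permutation p = 0.0448) and rho = -0.38 (exact permutation p = 0.360). Without NB 3 and NB 8 their r was 0.06.

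**Figure D4:**
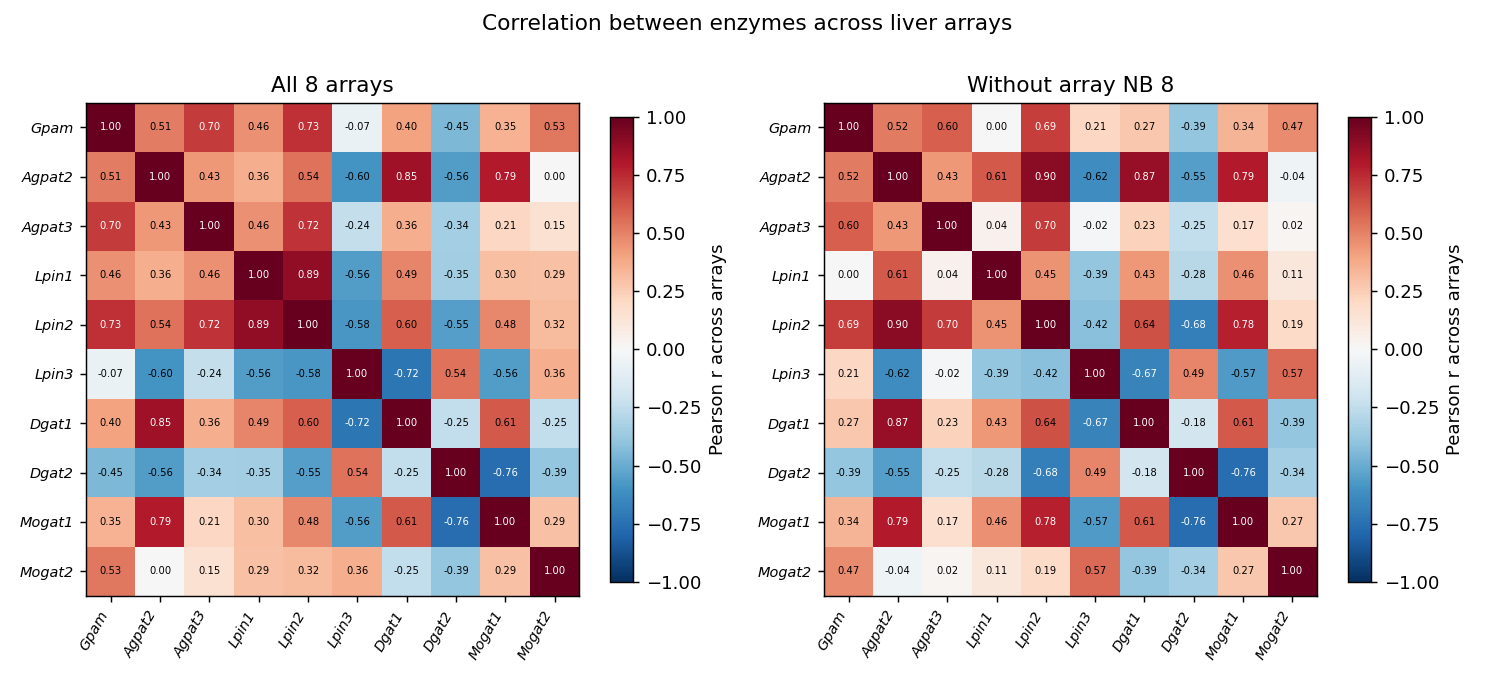
Colours and numbers give Pearson r between each pair of enzymes across liver arrays, with all 8 arrays on the left and without NB 8 on the right. The r of Lpin1 and Lpin2 is 0.89 with all arrays and 0.45 without NB 8.

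Around the 10 enzymes, 59 further genes of glycerolipid metabolism and its regulation were counted by role. All had a probe and 57 were tested. Cds1 and Awat1 were well above background on 0 arrays and were not tested. By limma 0 of 57 were called, against 0.00698% of all features, and 0 had an unadjusted p under 0.05, against 1.69%. Of the 57 log2 fold changes 32 were below 0 (56.1%, against 54.1% over all features) and 25 above, with a median of -0.00921. No gene in these lists had values without overlap between the genotypes, near the share over all features, 1.16%.

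Other acyltransferases of the first steps were as level as the members. Of 7 genes 4 were above 0, with a median of 0.0107. Gpat3, an endoplasmic reticulum isoform of the GPAM reaction, had the smallest p, with a log2 fold change of 0.16 (SE 0.131) and ranges of 1.59 to 2.14 in NB and 1.53 to 1.86 in NN. Agpat4 had 0.08 (SE 0.110). Of the genes listed under glycerol-3-phosphate supply, 2 of 7 were above 0 (median -0.0515). Gpd1, the cytosolic dehydrogenase that makes it from a glycolytic intermediate, had -0.13 (SE 0.129), at 5.84 to 6.28 in NB and 5.91 to 6.32 in NN. Gpd2, the mitochondrial dehydrogenase, oxidises glycerol-3-phosphate and so uses it, and had -0.10 (SE 0.125). Of the 5 acyl-CoA synthetases, which activate fatty acids before acylation, 3 were above 0 (median 0.0418), with Acsl5 at -0.11 (SE 0.103) and Acsl4 at 0.09 (SE 0.122).

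The genes listed under lipin dephosphorylation and triglyceride partitioning had 5 of 8 values above 0 and a median of 0.0209. Fitm2, which partitions triglyceride into droplets, had 0.06 (SE 0.0833), and Bscl2, the gene of seipin, had 0.05 (SE 0.0778). Of the genes that divert phosphatidate or diacylglycerol to phospholipids, 2 of 8 were above 0 (median -0.0225), with Pcyt2 at -0.09 (SE 0.106) and Chpt1, a choline phosphotransferase, at -0.14 (SE 0.203). Of 11 genes that consume monoacylglycerol or diacylglycerol or hydrolyse lipid phosphates, 7 were above 0 (median 0.0608). Plpp2, a lipid phosphate phosphatase, had 0.28 (SE 0.174), with 1.24 to 2.02 in NB and 1.09 to 1.57 in NN, and Plpp1 had 0.10 (SE 0.0884). The 2 tested relatives of Dgat2, Dgat2l6 and Awat2, had -0.07 (SE 0.0756) and -0.05 (SE 0.0886). Among 9 transcription factors and coactivators 2 were above 0 (median -0.0757). Ppargc1b had the largest value, 0.35 (SE 0.202), with -0.64 to -0.18 in NB and -1.26 to -0.33 in NN. Srebf1 had -0.17 (SE 0.131) and Mlxipl, the gene of the carbohydrate-responsive factor ChREBP, -0.08 (SE 0.0946), each with an adjusted p of 1.

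**Figure D5:**
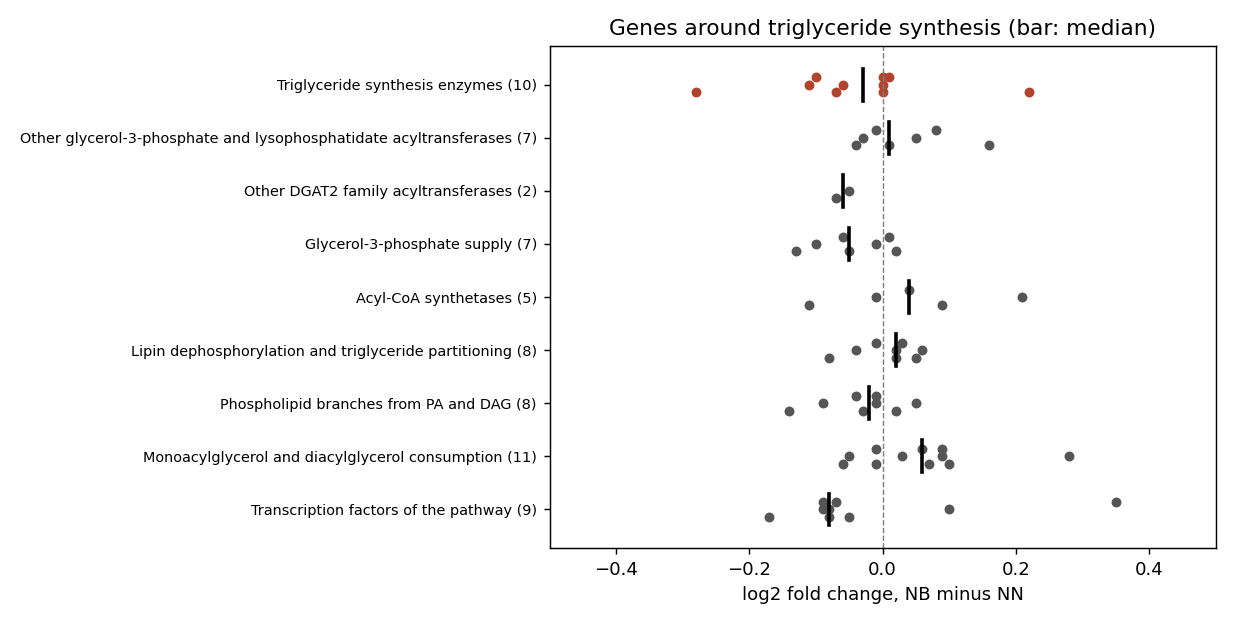
Points are log2 fold changes (NB minus NN) of single genes, with the 10 triglyceride synthesis enzymes in the top row and 8 lists of related genes under it (PA, phosphatidate; DAG, diacylglycerol; number of genes tested in brackets), and bars are medians. All list medians lie between -0.0757 and 0.0608, and no gene passed the test.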

How the data were processed

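Scanner files of 8 arrays, 4 per genotype, on 1 slide with 1 scan date were used. Per the file headers, intensity was extracted with Agilent Feature Extraction 11.5.1.1 (the submitters' processing notes name 9.1), with spatial and multiplicative detrending and no scaling between arrays. The deposited marks for spots (well above background, outlier, saturated) were used as given, and the authors' value table, linear intensity whose 8 columns have equal sorted values, was an alternative. Accessions were matched without version to RefSeq symbols of GRCm38.p6 (31064 of 60273 probes). Header build mm9 was not used for coordinates.

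Outlier spots (248 to 621 per array) were left out, spots of a probe averaged, and log2 signals set relative to each array's 75th percentile. Probes well above background on at least 4 arrays were kept (46848), and a gene took its brightest probe. NB was set against NN in limma 3.58.1, run in R 4.3.3 (two-sided, Benjamini-Hochberg over 42982 features, threshold 0.05); the procedure was tested on simulated data. Isoform pairs and correlations used exact permutation tests in Python 3.11.15. The members and lists were chosen with earlier results of these data known. The named genes are every member, the 2 genes with the smallest p of each related list, Srebf1 and Mlxipl, and the 3 highest and 2 lowest of the correlations; Ppargc1a, Dbp, Per1 and Noct were added after their values were seen. Ldaf1 is listed in the reference table as Tmem159. Alternatives covered background correction, scaling, the value table, filters, probe summary, variance model, array weights, slide position, threshold and each array left out.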

Additional observations from a re-analysis of the deposited data

Results flagged for a closer look

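Of 62 sets of 4 arrays of 1 genotype examined (the 10 members, the named related genes and the genes set beside Lpin1), 5 held 1 array far from the other 3 by Dixon's 95% criterion, which chance meets in about 5% of sets. Lpin2 was high on array NB 8, at a log2 signal of 2.78 with the other NB arrays at 2.03 to 2.11. Mogat2 was low on array NB 5, at -2.37 with the others at -2.13 to -2.11. Agpat4, an acyltransferase of the second step, was low on array NB 2, at -1.76 with the others at -1.59 to -1.57. Per1 was low on array NN 1, at -0.01 with the other NN arrays at 1.05 to 1.23, and so was Noct, at -0.85 with the others at 0.54 to 0.66. Per1 and Noct, like Ppargc1a and Dbp, were chosen after their values had been seen, so the 5% does not hold for their sets. Lpin1 on NB 8 did not meet this criterion, since the other 3 NB arrays were themselves spread from -0.24 to 0.70.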

How the results depend on the processing

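By replicate number, no paired analysis was possible because the sample numbers run through both genotypes and are shared by none. Slide columns, each with 1 array of either genotype, allowed a blocked fit, which called 0 members (lowest adjusted p = 1). It lowered the SE most for Mogat1 (0.139, against 0.300 without the block) and Lpin1 (0.451, against 0.627). For Lpin2, Mogat2, Agpat3 and Lpin3 the SE was 0.863 to 0.988 times that without the block. For Agpat2, Dgat2, Gpam and Dgat1 it was 1.01 to 1.11 times, so the block did not sharpen every member. Over 20 alternative fits no member was called, with a lowest unadjusted p of 0.0801 and adjusted p of 1, and likewise with every probe tested separately and at an adjusted p of 0.1. The whole array had 3 features called, 5 when the probes of a gene were averaged, and 2 to 3 with 1 array left out. It had 4 with the authors' value table, with the alternative variance model and with every probe tested separately. With the filter on all 8 arrays it had 2. Of 120 log2 fold changes of members under the other settings 111 kept their sign. With array weights the sign turned for Lpin1 (-0.19), Lpin2 (-0.0656), Lpin3 (0.00188) and Mogat2 (-0.0217), with normexp for Dgat2 (-0.00195) and Mogat2 (-0.0204), and for Lpin3 with median scaling (0.0043), the percentile of probes detected on all arrays (0.00244) and the authors' value table (0.00149). The cause was not tested.

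With 1 array left out, the median log2 fold change of the members ran from -0.128 (without NB 8) to -0.00404. That of Lpin1 ran from -0.49 to 0.61, Lpin2 from -0.18 to 0.0738, Lpin3 from -0.0543 to 0.0238, Agpat3 from -0.12 to 0.011, Dgat2 from -0.00822 to 0.0197, Mogat2 from -0.0158 to 0.0721, Gpam from -0.18 to -0.0355, Agpat2 from -0.14 to -0.0761, Dgat1 from -0.11 to -0.0349 and Mogat1 from -0.47 to -0.0489. The genotype change of Lpin1 minus Lpin2 ran from -0.31 to 0.54, of Lpin1 minus Lpin3 from -0.51 to 0.66 and of Lpin2 minus Lpin3 from -0.20 to 0.13. Without NB 8 these were the lowest values, with exact permutation p of 0.343, 0.229 and 0.114. That of Dgat1 minus Dgat2 ran from -0.12 (without NB 8, exact permutation p = 0.0571, the lowest of any pair) to -0.0287, of Mogat1 minus Mogat2 from -0.46 to -0.0674 and of Agpat2 minus Agpat3 from -0.13 to -0.0139. The r of Lpin3 and Dgat1 turned to 0.06 without the 2 arrays farthest from the median of Lpin3. The correlations without NB 8 were added after seeing the data. The 4 arrays a genotype limit the precision most for Lpin1, whose interval stayed the widest with the slide column as a block (0.535-fold to 2.53-fold).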
